A study of Mus musculus with 12 samples.

Results

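Endoplasmic reticulum (ER) stress and protein folding genes were examined in Leydig cells, the cells between the seminiferous tubules that make testosterone, cut out of mouse testis sections by laser capture. The set held 32 genes, chosen by name: stress sensors, transcription factors, chaperones, disulfide isomerases, and parts of the degradation and translocation machinery. All non-control array probes whose gene name was one of these were taken, which gave 49 probes of 29 genes among 41174 probes. The other 3 genes (Ppp1r15a, Sel1l and Manf) have 5 probes under older names and are given apart. The DEHP mice were adult male C57BL/6J mice, 21 weeks old, given di-(2-ethylhexyl) phthalate (DEHP), a plasticiser, by daily gavage in corn oil, at a dose of 200 mg/kg over 21 days; vehicle mice of the same strain, sex and age received corn oil alone. RNA of the captured cells of each mouse was amplified for 2 rounds, and 2-colour Agilent arrays of 60-base probes were used for 2 DEHP mice (labelled 1 and 4) and 3 vehicle mice (labelled 1, 2 and 4). Every pairing of a DEHP with a vehicle mouse was hybridised with the dyes both ways round, on 12 arrays in all. The labels speak of 4 mice in each group. The other mice were not analysed here.

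The ER lumen is where secreted and membrane proteins fold. When unfolded proteins accumulate there, the sensors Ern1, Eif2ak3 (PERK) and Atf6 start the unfolded protein response: Ern1 splices Xbp1 mRNA, PERK slows translation and favours that of Atf4, which acts on genes such as Ddit3 (CHOP), Trib3, Asns and Chac1, and Atf6 and Xbp1 raise ER chaperones, isomerases and degradation factors. In steroid-producing cells the ER also carries several enzymes of steroid synthesis, and in spermatids it serves the folding of acrosomal and sperm surface proteins. Several of these responses act through splicing or translation, which probes for total mRNA of a gene do not measure.

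Many ER chaperone genes carry an ER stress response element (ERSE) in the promoter, the letters CCAAT and CCACG with 9 bases between them, to which Atf6 binds together with NF-Y. Promoters of 29 of the 32 genes were matched by symbol in the RefSeq table (build GRCm38.p6), each entry running from 250 bases before to 50 bases after a transcript start. Searched on both strands, the element was found in 0.119% of all 32851 promoter entries and in 7 of the 29 member genes. The 7 windows are shown because 6 of the genes (all but Creld2) hold the probes whose groups did not overlap, described below; capitals mark the element, 5′ to 3′ on the gene's strand, and CGTGG at its left end is the element in reverse. For Hsp90b1 the nearer of 2 matches is shown.
Hspa5, chr2:34772000-34772068, plus strand: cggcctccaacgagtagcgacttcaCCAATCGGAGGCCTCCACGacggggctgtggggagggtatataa
Hsp90b1, chr10:86705508-86705576, minus strand: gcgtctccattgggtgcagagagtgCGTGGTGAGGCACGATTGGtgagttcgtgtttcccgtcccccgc
Calr, chr8:84847050-84847118, minus strand: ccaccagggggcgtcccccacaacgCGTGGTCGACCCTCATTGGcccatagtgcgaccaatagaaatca
Canx, chr11:50325775-50325843, minus strand: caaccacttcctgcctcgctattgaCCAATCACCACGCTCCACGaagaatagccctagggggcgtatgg
Dnajc3, chr14:118937802-118937870, plus strand: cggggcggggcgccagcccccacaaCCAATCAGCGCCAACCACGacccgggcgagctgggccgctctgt
Pdia6, chr12:17266466-17266534, plus strand: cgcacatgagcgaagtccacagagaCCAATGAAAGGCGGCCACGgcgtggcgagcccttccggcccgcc
Creld2, chr15:88819495-88819563, plus strand: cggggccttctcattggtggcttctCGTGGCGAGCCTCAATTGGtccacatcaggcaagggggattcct

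Targets of Atf4 can carry the core of the C/EBP-ATF response element, searched as TGATGNAA on both strands. It was found in 3.97% of all promoter entries and in Asns, Chac1, Herpud1 and Trib3 among the members. A second form of the ER element (ERSE-II, the letters ATTGG and CCACG with 1 base between them) was found in 0.0365% of entries and in Herpud1 and Dnajb11. The Xbp1 target letters TGACGTGG, found in 0.676% of entries, were in no member's window. A match describes the letters only.

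Well above background were 45.4% to 54.4% of probe spots in red and 35.5% to 46.1% in green. Of the 49 probes, 42 probes of 27 genes could be tested, and 30 of the 42 were well above background on all arrays. Both probes of Trib3, a pseudokinase induced in ER stress, and the probe of the isomerase Pdia4 lay near background, as did single probes of Hyou1, Pdia6, Ero1l and Ssr1. Values below are log2 levels in a mouse, counted from the mean of all 5, and differences are DEHP minus vehicle. The replicate is the mouse (n = 2 DEHP and 3 vehicle); fewer cells of a type in a capture and less RNA per cell cannot be told apart in such material.

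Markers of cell types differed between the captures. The median of 10 spermatid markers was 0.05 in DEHP mouse 1 and 0.83 in DEHP mouse 4, against 0.20, -0.65 and -0.45 in vehicle mice 1, 2 and 4; their summed log2 levels ran from 0.38 to 7.80 in DEHP mice and from -5.32 to 1.74 in vehicle mice, and all 10 had a positive difference. The 9 Leydig cell markers had medians of 0.68 and -0.75 in DEHP mice 1 and 4, against -0.49, 0.25 and 0.50 in vehicle mice 1, 2 and 4, with summed levels from -7.57 to 6.01 in DEHP mice and from -4.97 to 4.28 in vehicle mice. DEHP mouse 4 and vehicle mouse 1 were thus the lowest in Leydig cell markers of their groups and the highest in spermatid markers. All 10 spermatid markers, and 7 of 9 Leydig cell markers, were well above background on all arrays. The median differences of the other lists were 0.03 for spermatocyte (7 genes), -0.40 for Sertoli (6 of 7 tested; Gata1 was near background), -0.14 for macrophage (6), -0.86 for myoid (5) and -0.11 for endothelial markers (5). The Sertoli list was the only list whose summed levels did not overlap between the groups. They ran from -2.04 to -0.23 in DEHP mice and from 0.48 to 0.90 in vehicle mice. The part of cell content in the results below was not tested. The log ratios of both arrays of a pair of mice, turned to the same direction, correlated across probes at r = 0.83 to 0.94, except for DEHP mouse 1 with vehicle mouse 4 (r = 0.57).

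Hspa5 (BiP), the Hsp70 chaperone of the ER lumen that also holds the stress sensors inactive, had the largest positive difference of the members. Its probe (A_51_P395098; mm7 chromosome 2, 34783421 to 34783480, plus strand) was at 0.18 and 0.83 in DEHP mice 1 and 4, against -0.77, -0.30 and 0.05 in vehicle mice 1, 2 and 4. Both DEHP mice lay above all vehicle mice, DEHP mouse 1 by a small margin over vehicle mouse 4. The means were 0.51 ± 0.46 in DEHP mice and -0.34 ± 0.41 in vehicle mice (SD, n = 2 and 3), a log2 difference of 0.85 (SE 0.33) or 1.80-fold, with a 95% interval from 1.02-fold to 3.17-fold. In the limma fit across all 21185 tested probes the unadjusted p was 0.0449 and the adjusted p = 1.00, so that Hspa5 did not pass the threshold of 0.05. Over the settings that leave out a mouse the difference ran from 0.52 (without DEHP mouse 4) to 1.17 (without DEHP mouse 1). Taken slide by slide it was 0.99, 1.09 and 0.45, the last from the slide on which vehicle mouse 4 is the only vehicle mouse. The arrays of DEHP mouse 1 with vehicle mouse 4 gave log2 ratios, DEHP over vehicle, of 0.24 and -0.05. With median centring in place of loess the difference was 0.88 (SE 0.51), and DEHP mouse 1 no longer lay above all vehicle mice.

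No member passed the threshold, nor did any of the 21185 probes (0%); adjusted p = 1.00 was the lowest. Before adjustment, 2 of 42 member probes had a p under 0.05, Hspa5 and a probe of Dnajc3, against 0.987% of all probes. The DEHP and vehicle mice did not overlap for 8 of the 42 member probes, 6 higher and 2 lower in DEHP mice; over all probes 4.14% were higher and 5.32% lower, 9.47% together. With median centring in place of loess, 5 member probes did not overlap (7.82% of all probes). Hspa5, and the higher probes of Hsp90b1, Calr and Dnajc3, then had overlapping groups. With loess, 25 member probes had a difference above 0 and 17 below, with a median of 0.08. Over all probes 49% were above 0, with a median of -0.01. The intervals of the 42 differences were wide (SE from 0.17 to 0.59), so that values near 0 do not show equal levels.

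**Figure D1:**
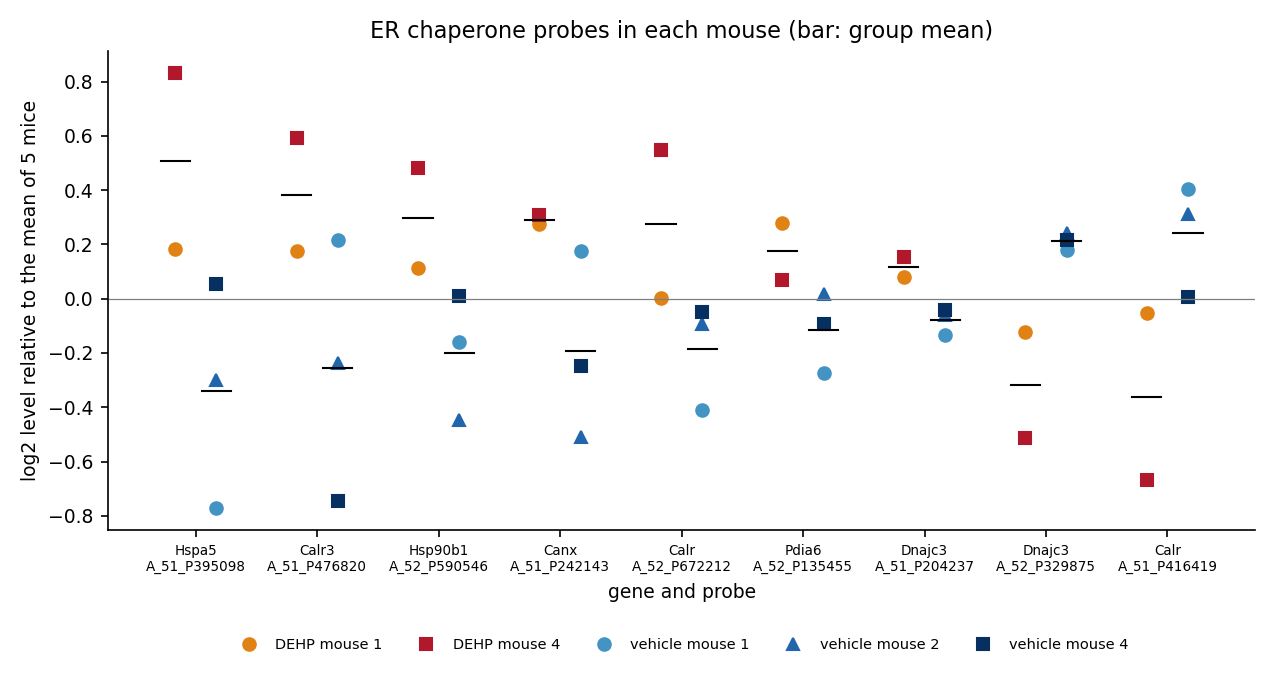
Log2 level relative to the mean of 5 mice (y axis) in each DEHP mouse (left of each pair, orange and red) and vehicle mouse (right, blues) for the 9 probes described one by one (x axis); bars are group means. The DEHP mice sit above all vehicle mice for Hspa5 and for 1 probe each of Hsp90b1, Canx, Calr, Pdia6 and Dnajc3, below them for a further probe of Dnajc3 and of Calr, and DEHP mouse 4 lies farther out than DEHP mouse 1 for 8 of the 9 probes.

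Hsp90b1, the Hsp90 chaperone of the ER, has 2 tested probes. The upstream one (A_52_P590546, chromosome 10, 86256795 to 86256854, minus strand) was at 0.11 and 0.48 in DEHP mice 1 and 4, against -0.16, -0.45 and 0.01 in vehicle mice 1, 2 and 4. Every DEHP value lay above the vehicle values, and the difference was 0.50 (SE 0.23, adjusted p = 1.00). The downstream probe had a difference of 0.15 (SE 0.27), with overlapping groups.

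Dnajc3, a co-chaperone of Hspa5, gave opposite values from 2 of its 4 probes. A_51_P204237, whose ends in the genome (chromosome 14, 113381870 to 113383374, plus strand) lie farther apart than its length, so that it crosses an exon junction, was at 0.08 and 0.15 in DEHP mice 1 and 4, against -0.13, -0.06 and -0.04 in vehicle mice 1, 2 and 4. The groups did not overlap, though the difference was only 0.19 (SE 0.17). A_52_P329875, further downstream (113384636 to 113384695), was at -0.12 and -0.51 in DEHP mice, against 0.18, 0.24 and 0.22 in vehicle mice, also without overlap; its difference was -0.53 (SE 0.20, unadjusted p = 0.0385, adjusted p = 1.00). The first and the last probe of the gene lay between, at 0.12 and 0.03. Hyou1 and Sdf2l1, both partners of Hspa5, had differences of 0.17 (SE 0.27) and 0.13 (SE 0.19), Dnajb11, another co-chaperone, -0.06 (SE 0.21), and the 3 probes of Dnajb9, which keeps Ern1 inactive in mammals, 0.19 to 0.35, each with overlapping groups. The Dnajb9 probe at 0.19 (A_52_P150356) was dim, well above background on 0.33 of its DEHP arrays and 0.17 of its vehicle arrays (as shares). Of the 13 probes of Hsp70 and Hsp90 chaperones and their co-chaperones, 11 had a difference above 0 and 2 below (49% of all probes were above 0), and 4 had groups that did not overlap (9.47% of all probes).

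Calr (calreticulin), a calcium-binding lectin chaperone, was measured by 2 probes that went opposite ways. The upstream probe A_52_P672212 (chromosome 8, 83430740 to 83430799, minus strand) was at 0.003 and 0.55 in DEHP mice 1 and 4, against -0.41, -0.09 and -0.05 in vehicle mice 1, 2 and 4. The DEHP mice lay above all vehicle mice, with a difference of 0.46 (SE 0.25, unadjusted p = 0.114). The downstream probe A_51_P416419 (83428403 to 83428462) was at -0.05 and -0.67 in DEHP mice, against 0.40, 0.31 and 0.01 in vehicle mice. Here the DEHP mice lay below all vehicle mice, and the difference was -0.60 (SE 0.26, unadjusted p = 0.0634). Both probes were well above background on all arrays, and DEHP mouse 1 and vehicle mouse 4 lay near 0 on both. The opposite values came mainly from DEHP mouse 4 and vehicle mouse 1. Vehicle mouse 2 lay near 0 on the upstream probe (-0.09) and away from it on the downstream probe (0.31). Without DEHP mouse 4 the differences were 0.19 and -0.29, and without DEHP mouse 1 they were 0.73 and -0.91. The mean of the 2 probes, the value a gene-level summary would give, was -0.070 (SE 0.16). The upstream probe was the dimmer (mean log2 intensity 7.1, against 10.2). With the scanner software's own processed signals the differences were 0.87 and -0.66, so that the sign of such a mean depends on the background step.

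Canx (calnexin), the membrane-bound relative of Calr, has 3 tested probes. Its upstream probe A_51_P242143 (chromosome 11, ends at 50253061 and 50253842, minus strand, across an exon junction) was at 0.27 and 0.31 in DEHP mice 1 and 4, against 0.17, -0.51 and -0.25 in vehicle mice 1, 2 and 4. The groups did not overlap, with a difference of 0.49 (SE 0.25). The other 2 probes were at -0.21 (SE 0.33) and 0.13 (SE 0.32). The upstream probe was the dimmest of the 3 (mean log2 intensity 7.5, against 9.6 and 11.0). Its difference was 0.84 with the scanner software's processed signals. Calr3, a calreticulin of male germ cells, was at 0.18 and 0.59 in DEHP mice 1 and 4, against 0.22, -0.24 and -0.74 in vehicle mice 1, 2 and 4, which overlapped (difference 0.64, SE 0.33; probe A_51_P476820, chromosome 8, 70947458 to 70947517). DEHP mouse 4 was the highest mouse and vehicle mice 2 and 4 the lowest for Calr3, as for the median of the spermatid markers.

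Pdia6, a disulfide isomerase, had 1 of 3 tested probes with groups that did not overlap. A_52_P135455 (chromosome 12, 17331366 to 17331425, plus strand) was at 0.28 and 0.07 in DEHP mice 1 and 4, against -0.27, 0.02 and -0.09 in vehicle mice 1, 2 and 4, a difference of 0.29 (SE 0.19). The probe was dim, above background on 0.83 of its DEHP arrays and 0.42 of its vehicle arrays (as shares), and its difference depended on the background step: it was 1.29 with the scanner software's own processed signals. The other Pdia6 probes were at -0.05 and -0.09. A further Pdia6 probe was well above background on no vehicle array and on 0.42 of the DEHP arrays (as a share), and was not tested. Among the other isomerases and oxidases, P4hb was at -0.41 (SE 0.38), Ero1l, which reoxidises the isomerases, at -0.33 (SE 0.23), and Pdia3, the isomerase that works with Calr and Canx, at 0.15 (SE 0.26).

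The sensors and transcription factors showed no separation of the groups. Eif2ak3 was at 0.42 (SE 0.39), Ern1 at -0.19 (SE 0.19) and the 2 probes of Atf6 at -0.04 and -0.02 (SE 0.18 each). Atf4 was at 0.21 (SE 0.19), Ddit3 at 0.10 (SE 0.19) and Xbp1, spliced and unspliced forms together, at -0.15 (SE 0.21). The probes of Ern1, Atf4, Ddit3 and Xbp1 were dim. They were well above background on 0.50, 0.58, 0.75 and 0.67 of their DEHP arrays (as shares). On their vehicle arrays the shares were 0.83, 0.58, 0.67 and 0.75. Values of such probes depend on the background step, so that small differences do not show equal levels. Of the ATF4 and CHOP targets, Chac1, which degrades glutathione, was at 0.80 with the widest error of the members (SE 0.59), and Asns (asparagine synthetase) at 0.14 (SE 0.41). In ER-associated degradation, Herpud1 was at 0.06 (SE 0.55) and the 3 probes of Edem1, a mannosidase-like protein, ran from -0.18 to 0.02. Creld2, a secreted ER stress protein, was at -0.10 (SE 0.25), Sec61b, a subunit of the translocon, at 0.04 (SE 0.32), and the 2 probes of Ssr1, of the translocon-associated complex, at -0.41 and -0.06. All these had overlapping groups. Edem1 A_52_P354520 and A_52_P86417 and Ssr1 A_52_P274028 were dim as well, well above background on 0.42, 0.42 and 0.58 of their DEHP arrays (as shares). On their vehicle arrays the shares were 0.58, 0.42 and 0.83. Of the genes found under older names, Manf, a secreted ER stress factor, was at -0.29 (SE 0.33) and Sel1l, of the degradation complex, at -0.02 (SE 0.25), both overlapping. This Sel1l probe was dim, well above background on 0.50 of its DEHP and 0.67 of its vehicle arrays (as shares). The 2 other Sel1l probes and that of Ppp1r15a, the phosphatase subunit that restores translation, were not well above background on any array.

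**Figure D2:**
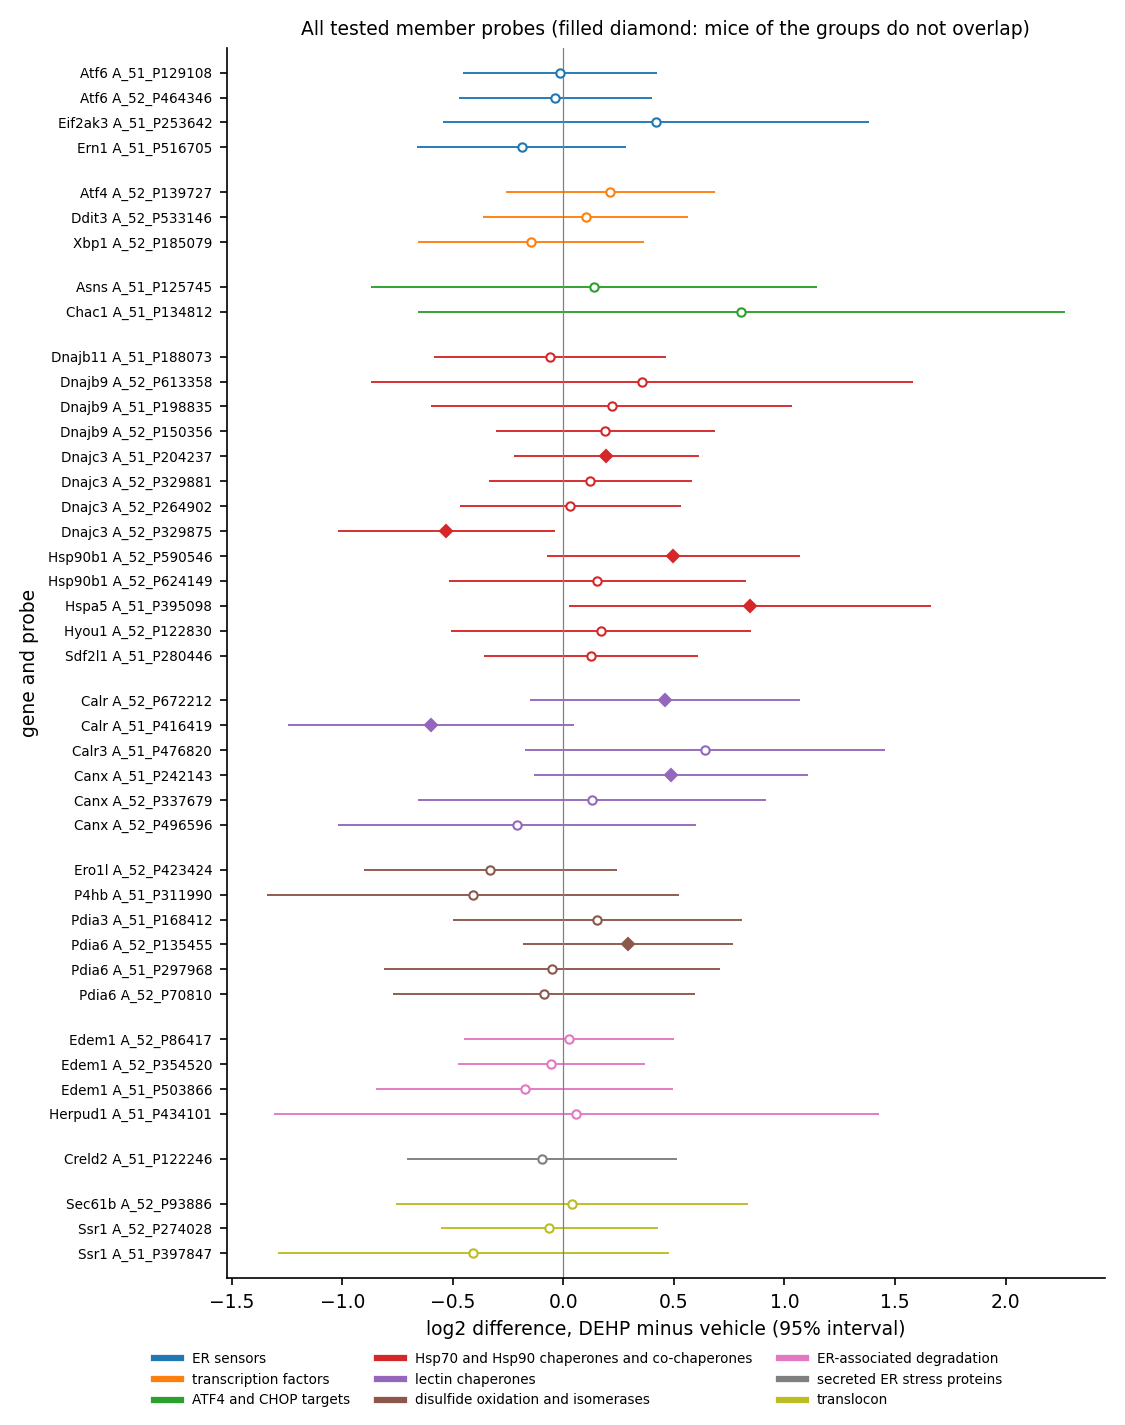
Log2 difference, DEHP minus vehicle (x axis), with its 95% interval, for the 42 tested member probes (y axis), coloured by role; filled diamonds are the 8 probes whose groups do not overlap. Nearly all intervals cross 0; those of Hspa5 and of Dnajc3 A_52_P329875 do not, before any adjustment for the 21185 probes.

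With loess, all 8 probes with non-overlapping groups belong to genes whose promoter holds the ERSE letters, a grouping made after these values were seen. Several of the 8, among them Hspa5, had overlapping groups with median centring. Of the 16 tested probes of the 7 ERSE genes, 6 were higher and 2 lower without overlap (4.14% and 5.32% of all probes). A higher probe was found in 6 of the 7 genes (all but Creld2). The matching share of all genes was not computed. A gene with several tested probes has more occasions for a higher one, so that this count is not a result about the element. Calr and Dnajc3 also hold the 2 lower probes, and the means over their probes were -0.070 and -0.046. With 1 value per gene, 3 of 27 members did not overlap by the brightest probe (9.18% of all genes). By the mean of the probes, 2 of 27 did not (9.24%). The 23 tested probes of the 18 member genes searched without a match all had overlapping groups, as had the 3 probes of Atf6 and Hyou1, whose promoters were not searched. The medians of the difference lay closer, at 0.13 for the 16 probes and 0.06 for the 23, since further probes of the ERSE genes had values near or below 0. Outside the members, 16 tested probes of 11 genes with an ERSE match held 2 higher and 1 lower without overlap, with a median of -0.04. The comparison of ERSE genes was made after the values were seen and was not tested, and 5 of the 7 ERSE genes have more than 1 tested probe, against 3 of the 18 others searched.

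The probes that disagreed within a gene target different parts of the transcript. For 5 of the 8 probes with non-overlapping groups, the sequence deposited with the array is given, 5′ to 3′, to show which stretch carried the value. Each of the 5 has no stop codon in at least 1 of the 3 reading frames, which does not by itself place a probe in coding sequence. The remaining probes, among them the downstream Calr probe, are not shown.
Calr A_52_P672212, difference 0.46: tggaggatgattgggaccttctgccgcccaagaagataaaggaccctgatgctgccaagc
Canx A_51_P242143, difference 0.49: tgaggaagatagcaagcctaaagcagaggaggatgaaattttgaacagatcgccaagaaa
Hsp90b1 A_52_P590546, difference 0.50: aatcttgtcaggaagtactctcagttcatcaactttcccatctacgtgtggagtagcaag
Dnajc3 A_51_P204237, difference 0.19: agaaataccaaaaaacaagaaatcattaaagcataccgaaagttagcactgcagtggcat
Dnajc3 A_52_P329875, difference -0.53: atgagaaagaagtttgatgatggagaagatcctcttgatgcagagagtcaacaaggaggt

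In each gene with several tested probes, the level of the most upstream probe minus that of the most downstream one was compared between the groups. For Calr this was 0.05 and 1.22 in DEHP mice 1 and 4, against -0.81, -0.40 and -0.06 in vehicle mice 1, 2 and 4. The DEHP mice lay above all vehicle mice, by 1.06 (SE 0.42, unadjusted p = 0.0471, limma adjusted p = 1.00 over 4072 genes), where 6.78% of genes were higher without overlap and 4.03% lower, 1.23% had an unadjusted p under 0.05 and 0% passed. The value was above 0 for 7 of 9 member genes: 0.36 for Canx (SE 0.49), 0.34 for Hsp90b1 (SE 0.33) and for Pdia6 (SE 0.33), and 0.09 to 0.14 for Dnajc3, Edem1 and Dnajb9. It was -0.34 for Ssr1 (SE 0.28) and -0.02 for Atf6. Over all 4072 genes it was above 0 for 63.5%, with a median of 0.08, the background against which the 7 of 9 members stand. By mouse, the median over all genes was -0.05 in DEHP mouse 1 and 0.14 in DEHP mouse 4, against 0.12, -0.12 and -0.11 in vehicle mice 1, 2 and 4, highest in DEHP mouse 4 and vehicle mouse 1. This comparison was added after the values were seen, and the part of this transcript-wide shift in the disagreement of the Calr probes was not tested.

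**Figure D3:**
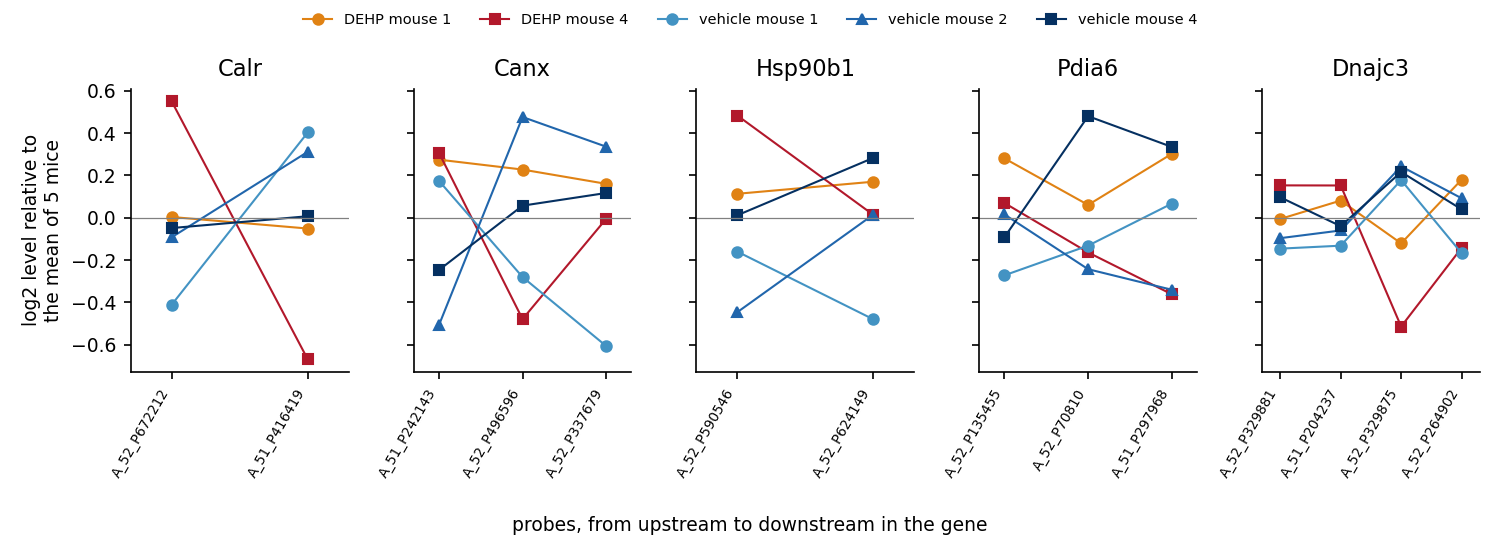
Log2 level in the 5 mice, relative to their mean (y axis) at the tested probes of Calr, Canx, Hsp90b1, Pdia6 and Dnajc3, ordered from upstream to downstream (x axis, not to scale); lines join the values of a mouse, DEHP in orange and red, vehicle in blues. For Calr, DEHP mouse 4 is the highest mouse upstream (0.55) and the lowest downstream (-0.67).

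Single mice of one group were also compared. These comparisons are between RNA extracts, tested with limma on the 12 array log ratios, and not between conditions: their SE is that of repeated arrays of the same RNA and does not hold the spread between mice, so that their p values cannot be set against those of DEHP and vehicle mice. DEHP mouse 4 differed from DEHP mouse 1 at an adjusted p under 0.05 for 32 of 42 member probes (74.5% of all probes), 14 higher (36% of all probes) and 18 lower (38.6%). With median centring in place of loess, which moves the median of all probes from -0.03 to 0.28, the members split into 24 higher and 4 lower and all probes into 11383 higher and 3234 lower. Relative to the median of all probes, 20 member probes lay above and 22 below with loess, and 24 and 18 with median centring. Vehicle mouse 1, set against the mean of the other 2 vehicle mice, differed for 27 of 42 (68.2% of all probes), 8 higher (32.8% of all probes) and 19 lower (35.5%). For vehicle mouse 1 the members held fewer higher and more lower calls than these shares would give; that difference was not tested.

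The co-chaperone Dnajb9 and the glutathione-degrading enzyme Chac1 had the largest rises. Dnajb9 probe A_52_P613358 (chromosome 12, 42082906 to 42082965) was at 1.00 in DEHP mouse 4, against -0.57 in DEHP mouse 1, a difference of 1.57 (SE 0.04, limma adjusted p = 4.9e-11), and its probe A_51_P198835 rose by 0.77 (SE 0.05). Chac1 (chromosome 2, 119095103 to 119095162) was at 1.07 in DEHP mouse 4, against -0.11 in DEHP mouse 1, a difference of 1.18 (SE 0.05, limma adjusted p = 1.16e-09). Vehicle mouse 1 had 0.61, against -1.09 and -0.49 in vehicle mice 2 and 4, a difference of 1.40 (SE 0.05). Calr3 and Dnajb9 A_52_P613358 were also higher in vehicle mouse 1, by 0.71 (SE 0.06) and 0.59 (SE 0.04). With median centring the rises in DEHP mouse 4 were larger, at 2.37 for this Dnajb9 probe. Chac1, Calr3 and this Dnajb9 probe were thus higher in the mouse of each group that had the higher spermatid and lower Leydig cell markers.

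Herpud1, which recruits the degradation machinery at the ER membrane, had the largest falls. It was at -0.45 in DEHP mouse 4, against 0.52 in DEHP mouse 1, a difference of -0.98 (SE 0.06, limma adjusted p = 2.65e-08; -0.34 with median centring). Vehicle mouse 1 had -0.99, against 0.47 and 0.45 in vehicle mice 2 and 4, a difference of -1.45 (SE 0.06, limma adjusted p = 2.36e-09). Eif2ak3 was lower in DEHP mouse 4 than in DEHP mouse 1 by a log2 difference of -0.90 (SE 0.07; -0.54 with median centring), and Ssr1 A_51_P397847 by -0.74 (SE 0.04), which was -0.04 and not called with median centring. P4hb had -0.44 in vehicle mouse 1, where vehicle mice 2 and 4 had 0.29 and 0.64, a difference of -0.90 (SE 0.04), and Canx A_52_P337679 differed by -0.83 (SE 0.04). Of the 42 member probes, 15 were lower in both DEHP mouse 4 and vehicle mouse 1 (25.7% of all probes), among them probes of Herpud1, P4hb, Eif2ak3, Canx, Sec61b, Ssr1 and Xbp1, and 5 were higher in both (23.8% of all probes). With median centring only 3 were lower in both (11.9% of all probes), probes of Herpud1, Eif2ak3 and Edem1, while 7 were higher in both (22% of all probes) and Sec61b turned to 0.41 for DEHP mouse 4. Both comparisons use the same arrays.

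Hspa5 did not follow this pattern. It was higher in DEHP mouse 4 than in DEHP mouse 1 by 0.65 (SE 0.08, limma adjusted p = 1.12e-05) but lower in vehicle mouse 1 than in vehicle mice 2 and 4, with a difference of -0.65 (SE 0.08, limma adjusted p = 2.23e-05). With loess, 3 member probes had this combination (4.12% of all probes): Hspa5, Calr A_52_P672212 and Dnajb9 A_51_P198835. These 3 kept both directions with median centring, where Hspa5 was at 1.37 and -0.69 and the combination held for 11 member probes (10.5% of all probes).

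**Figure D4:**
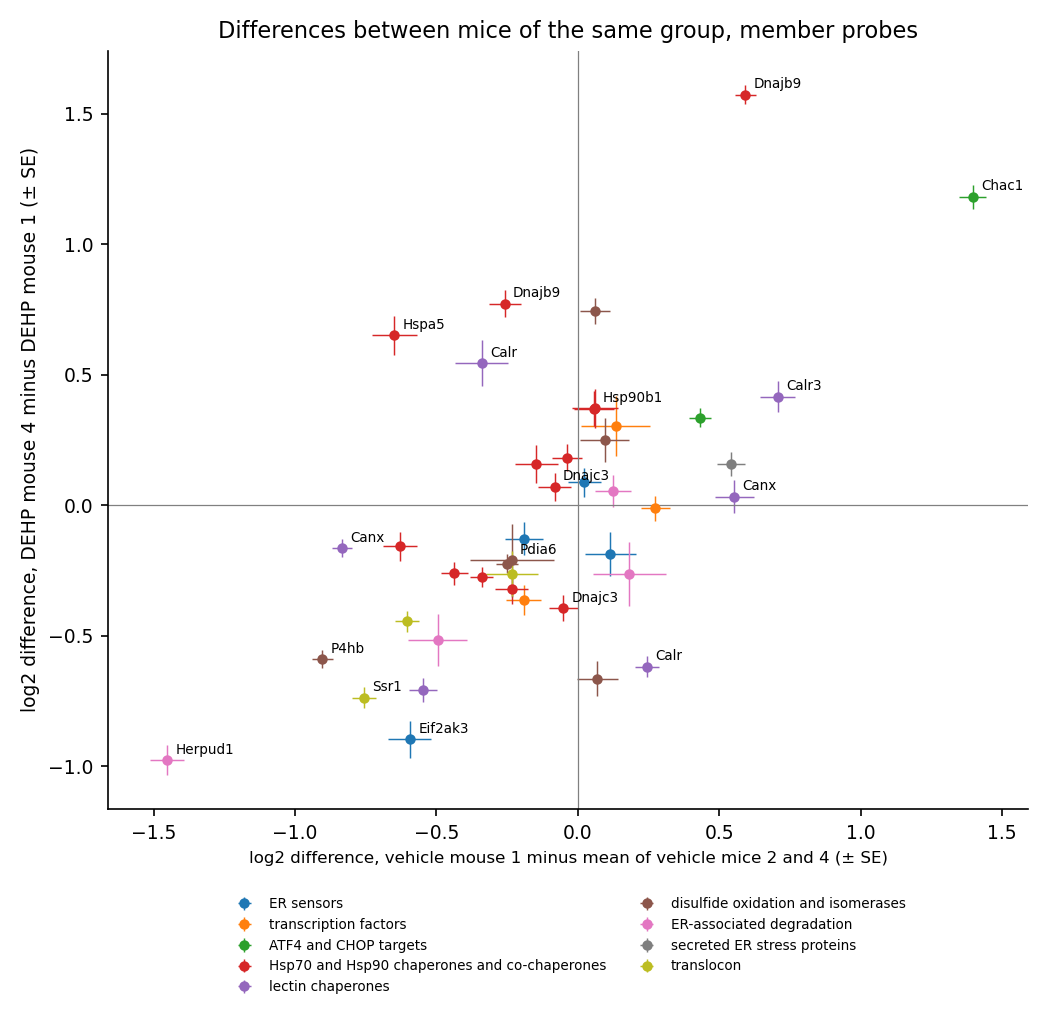
Log2 difference of DEHP mouse 4 minus DEHP mouse 1 (y axis) against that of vehicle mouse 1 minus the mean of vehicle mice 2 and 4 (x axis) for the 42 tested member probes, with SE bars from the repeated arrays, coloured by role. Chac1 and a Dnajb9 probe lie at the upper right, Herpud1, P4hb, Ssr1 and Eif2ak3 at the lower left, and Hspa5 at the upper left.

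A wider list of 57 other ER genes (sensors and their activation, chaperones, isomerases, degradation, ATF4 targets, kinases, translocon and signal peptidase) was set beside the members, with 1 probe for each of the 53 genes tested. No gene passed the threshold or reached an unadjusted p under 0.05; 22 differences were positive and 31 negative (median -0.08), and groups did not overlap for 1 higher and 3 lower genes, where 9.18% of all genes did not overlap with 1 probe per gene. The lowest p values belonged to Eif2ak1, a kinase of the translation initiation step (0.44, SE 0.25), Fkbp11, a prolyl isomerase (-0.37, SE 0.22), and Sec63, a translocon subunit (-0.64, SE 0.39). Fkbp11 was at -0.03 and -0.41 in DEHP mice 1 and 4, against -0.01, 0.36 and 0.09 in vehicle mice 1, 2 and 4, without overlap; the mice overlapped for the other 2. Of the 53 genes, 15 were higher and 30 lower in DEHP mouse 4 than in DEHP mouse 1 with loess (36% and 38.6% of all probes), but 28 were higher and 9 lower with median centring (53.7% and 15.3%). In vehicle mouse 1, set against vehicle mice 2 and 4, 13 were higher and 31 lower with loess (32.8% and 35.5% of all probes), and 10 higher and 29 lower with median centring (24% and 35.9%).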

How the data were processed

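Intensity values (mean signal and local background median, 2 channels) come from the deposited scanner files, which per the file headers were made with Feature Extraction 9.5.1.1 and are not normalized between arrays; the software's processed intensity and log10 ratio of red over green are in the same deposited files, and flags scored 0 or 1 mark spots above background, saturated or outlying. The authors' deposited value table holds log2 ratios, whose filter and exact normalization are not given in the sources used here; matched by spot order, its columns correlated with the scanner ratios at r = 0.915 to 0.993 and ran as DEHP over vehicle, and limma is named in the submitters' processing notes.

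With R 4.3.3 and limma 3.58.1, background was corrected by normexp (offset 50), arrays were normalized by loess (control spots had weight 0), and control and outlier-marked spots were left out. The 12 log ratios were reduced by least squares to 5 mouse values and a dye effect. Tested probes were well above background in 2 or more mice, each on 50% or more of its arrays (21186 of 41174 probes, less 1 with a mouse without a value). Mouse values were compared with lmFit and eBayes, adjusted by Benjamini-Hochberg over all tested probes; single mice were compared on the array log ratios. The number of arrays and mice limits the precision. The functions were tested on simulated arrays.

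Members, lists and comparisons were chosen with earlier results of these data known. Values in every mouse are given for the probes of Hspa5 and Calr, for probes without overlap and for the 8 lowest p values; between mice of a group, for the 3 largest rises and falls; of the wider list, the 3 lowest p values where none passed 0.05 without overlap. Cell type lists (Leydig, spermatid, spermatocyte, Sertoli, macrophage, myoid, endothelial) and the wider list take the brightest tested probe of a gene. Probe positions are on mm7, as in the files; promoter sequences are RefSeq's, on GRCm38.p6. Alternatives covered background, normalization, filter, dye, slide, probes of a gene, left-out mice, the replicate number and the authors' table.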

Additional observations from a re-analysis of the deposited data

How the results depend on the processing

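No probe, member or other, passed an adjusted p of 0.05 under any alternative run for DEHP against vehicle. The count of 8 member probes without overlap (9.47% of all probes) was 5 with median centring (7.82%), 3 of 27 genes with the brightest probe of each (9.18%), 2 of 27 with the mean of its probes (9.24%), and 12, 13 and 27 on slides 1, 2 and 3 alone, which hold fewer mice (18.8%, 21% and 61.4%); with a mouse left out it ran from 11 to 25, since fewer mice overlap less often (16.6% to 56.5% of all probes). The 9 probes described one by one kept their direction with each mouse left out and under the alternatives run, except that the mean over a gene's probes gave -0.070 for Calr and -0.046 for Dnajc3, against positive values of 1 probe each. Their separation was less stable than their direction. With median centring the groups overlapped for Hspa5, Hsp90b1 A_52_P590546, Calr A_52_P672212 and Dnajc3 A_51_P204237. With a mouse left out, Hsp90b1 A_52_P590546 ran from 0.31 to 0.68, Canx A_51_P242143 from 0.33 to 0.67, Dnajc3 A_52_P329875 from -0.73 to -0.33 and Calr3 from 0.40 to 0.88. For DEHP mouse 4 against DEHP mouse 1, median centring gave 24 members higher and 4 lower, and Ssr1 at -0.04; the cause was not tested. With the mouse number as replicate block, 0 probes were called, with 0 members at an unadjusted p under 0.05 against 2. The 8 without overlap are counted from mouse values that the block does not alter. Deviations of same-numbered mice from their group means correlated at -0.72 (number 1) and -0.54 (number 4). With 2 DEHP mice these deviations are exact opposites of each other in the DEHP group. The correlations are thus not independent and cannot decide whether the numbers pair the mice. A dye effect for each slide could not be fitted, since dye and group run together on 2 of the 3 slides. In the authors' table, which holds 30 of the member probes, 6 did not overlap (9.1% of its probes). Dimness limits Pdia6 A_52_P135455, whose difference was 0.50 with normexp offset 16 and 1.29 with the scanner software's processed signals. The mean over the tested Pdia6 probes, which includes brighter ones, was 0.05.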
